A study of Mus musculus with 4 samples.

Results

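The genes described here mark regulatory T cells or encode peptides and cytokines linked to them, and were followed across 4 single-cell libraries from TC-1 tumours in mice. TC-1 is a tumour line derived from mouse lung epithelium and grown by transplantation. The members are Foxp3, Ikzf2, Ikzf4, Penk, Tff1, Ebi3 and Il10, taken by symbol, 7 of the 31053 features in each table and of the 20910 with at least 1 UMI (unique molecular identifier, a tag for 1 captured RNA molecule). They were listed with values of these libraries in view, so their pattern of expression is given as a description. Wild-type C57/bl6 mice carried 300000 TC-1 cells injected under the skin and, once the tumour reached 40 mm², received PBS or 1 intraperitoneal dose of cisplatin at 6 mg/kg. The groups are PBS and cisplatin at 1, 3 and 7 days after the dose, with 1 library in each. The PBS library carries no collection day, its source label says that it was not treated while its treatment label says PBS, and the number of mice pooled in a library is not stated. The cells were sorted as innate lymphoid cells by a CD45+, lineage-negative, CD90+ and CD127+ gate, and 15000 cells per library were captured for 3' tag sequencing with version 3 chemistry.

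Regulatory T cells are CD4 T cells that restrain other immune cells, and the transcription factor Foxp3 sets their programme. Helios (Ikzf2) and Eos (Ikzf4) are zinc finger proteins of the Ikaros family that act with Foxp3. These cells act in part through secreted products, among them interleukin 10 and cytokines that contain the Ebi3 subunit, and they gather in many mouse tumours. Proenkephalin (Penk) is the precursor of opioid peptides, best known from the nervous system and the adrenal medulla, and trefoil factor 1 (Tff1) is a small secreted peptide best known from the stomach lining.

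The coding sequence of Penk shows what its RNA encodes: a chain of short opioid peptides set between pairs of basic residues, where prohormone convertases cut. Read from the GENCODE vM21 transcript Penk-201 (mm10, chr4:4133531-4138819, minus strand), its 807 bases hold 7 in-frame enkephalin copies, 6 of Met-enkephalin and 1 of Leu-enkephalin. In 5 of the 7 copies a pair of lysine or arginine codons stands on both sides. Capitals mark the 15 bases of each pentapeptide, with the 6 flanking bases on each side in lower case.
Met-enkephalin copy 1: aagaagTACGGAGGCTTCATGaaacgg
Met-enkephalin copy 2: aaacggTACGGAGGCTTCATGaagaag
Met-enkephalin copy 3: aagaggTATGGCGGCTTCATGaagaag
Met-enkephalin copy 4: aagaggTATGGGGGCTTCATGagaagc
Met-enkephalin copy 5: aagcgcTACGGGGGCTTCATGagaagg
Leu-enkephalin copy 1: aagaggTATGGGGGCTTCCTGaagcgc
Met-enkephalin copy 6: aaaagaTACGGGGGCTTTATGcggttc

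Tff1 encodes a far shorter product, shown whole because its level in CD3-positive cells was called lower than in the PBS library on all 3 days after cisplatin. Its coding sequence in the transcript Tff1-201 (mm10, chr17:31161395-31165277, minus strand) has 264 bases, with the 8 cysteine codons in capitals. Cysteine pairs hold the trefoil fold together, and the capitals do not show which of these codons lie in it.
Tff1: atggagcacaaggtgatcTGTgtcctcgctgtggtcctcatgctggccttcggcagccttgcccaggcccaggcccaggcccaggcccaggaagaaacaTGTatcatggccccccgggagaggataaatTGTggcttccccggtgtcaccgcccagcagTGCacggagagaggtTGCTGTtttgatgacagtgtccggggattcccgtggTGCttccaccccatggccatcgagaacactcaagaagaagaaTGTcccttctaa
The other members lie at chrX:7573644-7595245 (Foxp3, plus strand), chr1:69531214-69687245 (Ikzf2, minus strand), chr10:128630843-128645991 (Ikzf4, minus strand), chr17:55952640-55957022 (Ebi3, plus strand) and chr1:131019845-131024974 (Il10, plus strand). Of the 7 members, Foxp3 alone shares its strand with another gene in the tables, Flicr. Flicr had 68 UMIs in the kept cells of the 4 libraries against 1486 of Foxp3. Each member but Il10 also has an annotated gene on the opposite strand, and whether the counting used strand is not given in the sources used here. The tags read the 3' ends of transcripts, so these counts say nothing of which peptides were made or released.

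After filters on genes and mitochondrial counts and removal of likely doublets, 7425, 6841, 4715 and 2705 cells were kept after PBS and on days 1, 3 and 7, with median depths of 6162, 8769, 6045 and 5039 UMIs per cell. The labelled cell type was checked against its markers. Macrophage transcripts were found in most cells: C1qa, a complement gene of macrophages, had a UMI in 92.8% to 98.5% of kept cells. Thy1, which encodes the CD90 of the sorting gate, had a UMI in 4.24% to 16.4%, and Il7r, which encodes its CD127, in 6.62% to 37.8%. The cells fell into 18 clusters. Of these, 10 (0 to 6, 8, 9 and 11) took no name from the marker lists, and 9 macrophage markers made up 2.07% to 5.95% of their UMIs. Cluster 7, led by Gzma and Nkg7, held 6 of 8 markers of group 1 innate lymphoid cells and 7 of 8 of T cells and was 62.5% CD3-positive. Library pairs shared 4 to 32 cell barcodes, and the alternative without shared barcodes is among those counted below.

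A cell is called CD3-positive where it holds at least 1 UMI of Cd3d, Cd3e or Cd3g, which encode the CD3 chains of the T cell receptor complex. There were 429 such cells after PBS, 1705 on day 1, 1246 on day 3 and 302 on day 7, or 5.78%, 24.9%, 26.4% and 11.2% of kept cells. Their median depth was 4837, 8844, 5618.5 and 4991.5 UMIs in the same order. They too held macrophage RNA: C1qa stood at 4398, 4314, 3326 and 3450 CPM (UMIs of a gene per 1000000 UMIs summed over the cells), and the 9 macrophage markers together made up 2.98%, 3.44%, 2.08% and 3.39% of their UMIs. In CD3-negative cells C1qa stood at 5405, 5296, 4800 and 4398 CPM. The main comparisons are therefore also given in CD3-positive cells in which those markers make up at most 1% of UMIs, which are 182, 413, 644 and 114 cells. In summed counts, fewer expressing cells and less RNA per cell cannot be told apart.

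Foxp3, Ikzf2, Ikzf4, Penk and Tff1 stood higher in CD3-positive than in CD3-negative cells in every library. Most UMIs of Ebi3 and Il10 lay in CD3-negative cells, which were 73.6% to 94.2% of kept cells in the 4 libraries. Over the 4 libraries, 81.4% of Foxp3 UMIs lay in CD3-positive cells (95% interval 79.3 to 83.3%), as did 78.3% of Ikzf2, 75.7% of Ikzf4, 88.5% of Penk and 83.4% of Tff1. For Ebi3 the share was 21.2% (20.02 to 22.44%) and for Il10 21.8% (20.5 to 23.2%). Intervals here and throughout cover counting error only, since no group has a replicate library.

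Foxp3, the transcription factor that defines the lineage, had 44.5 CPM in CD3-positive cells after PBS (113 UMIs), 36.2 on day 1 (623), 44.8 on day 3 (395) and 44.6 on day 7 (78). These levels lay close together, and of their counting intervals those of day 1 and day 3 alone did not overlap (33.4 to 39.2 and 40.5 to 49.5). In CD3-negative cells it had 0.560, 3.98, 2.14 and 0.293 CPM. The ratio of CD3-positive to CD3-negative levels was 79.5 after PBS, 9.09 on day 1, 20.9 on day 3 and 152 on day 7.

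Ikzf2 had 192, 210, 244 and 229 CPM in CD3-positive cells after PBS and on days 1, 3 and 7, and 3.88, 23.8, 16.5 and 7.25 in CD3-negative cells. Ikzf4 had 11.02, 13.3, 20.4 and 12.02 CPM in CD3-positive cells in the same order, and 0.269, 1.83, 1.72 and 0.293 in CD3-negative cells. For Ikzf2 and Ikzf4 the highest level in CD3-positive cells was that of day 3, but the intervals of day 3 and day 7 overlapped for Ikzf2 (233 to 254 and 208 to 253), and for Ikzf4 the day 7 value rests on 21 UMIs.

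Penk had 101 CPM in CD3-positive cells after PBS (257 UMIs), 23.5 on day 1 (404), 42.4 on day 3 (374) and 84.7 on day 7 (148). Its lowest level was that of day 1, and the counting intervals of PBS and day 7 overlapped (89.2 to 114 and 71.6 to 99.5). In CD3-negative cells Penk had 0.601, 1.81, 0.986 and 0.952 CPM.
Tff1 had 91.3 CPM in CD3-positive cells after PBS (232 UMIs), 24.6 on day 1 (424), 11.1 on day 3 (98) and 16.6 on day 7 (29). The PBS level stood above the other 3, and the day 3 and day 7 intervals overlapped (9.03 to 13.6 and 11.1 to 23.8). In CD3-negative cells Tff1 had 1.08, 1.83, 0.429 and 0.293 CPM.

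Ebi3, the shared subunit of interleukin 27 and interleukin 35, had 22.05, 28.8, 37.0 and 43.5 CPM in CD3-positive cells and 20.7, 25.6, 38.5 and 28.3 CPM in CD3-negative cells after PBS and on days 1, 3 and 7. Il10, which encodes interleukin 10, had 12.2, 22.6, 41.8 and 8.58 in CD3-positive cells and 12.3, 23.3, 45.5 and 5.35 in CD3-negative cells. In each library the Il10 levels of the cell groups lay within 1.61-fold of each other, and the counting interval of each ratio included 1. The Ebi3 interval excluded 1 on day 1, at a ratio of 1.13, and on day 7, at 1.54 (1.19 to 1.97).
A gene is called higher or lower in what follows where its level differed by at least 1.5-fold with a 95% counting interval that excludes a ratio of 1, on at least 20 UMIs over both sides. With 1 library per group this is a measure of size and counting error and no test of the treatment. By that criterion Foxp3, Ikzf2, Ikzf4, Penk and Tff1 were higher in CD3-positive than CD3-negative cells in all 4 libraries, and Ebi3 was on day 7. Among all genes compared, 7.21% were higher and 1.75% lower after PBS, 7.88% and 2.29% on day 1, 10.9% and 4.93% on day 3, and 8.31% and 2.83% on day 7. The members were listed for this pattern, so the counts are a description.

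**Figure D1:**
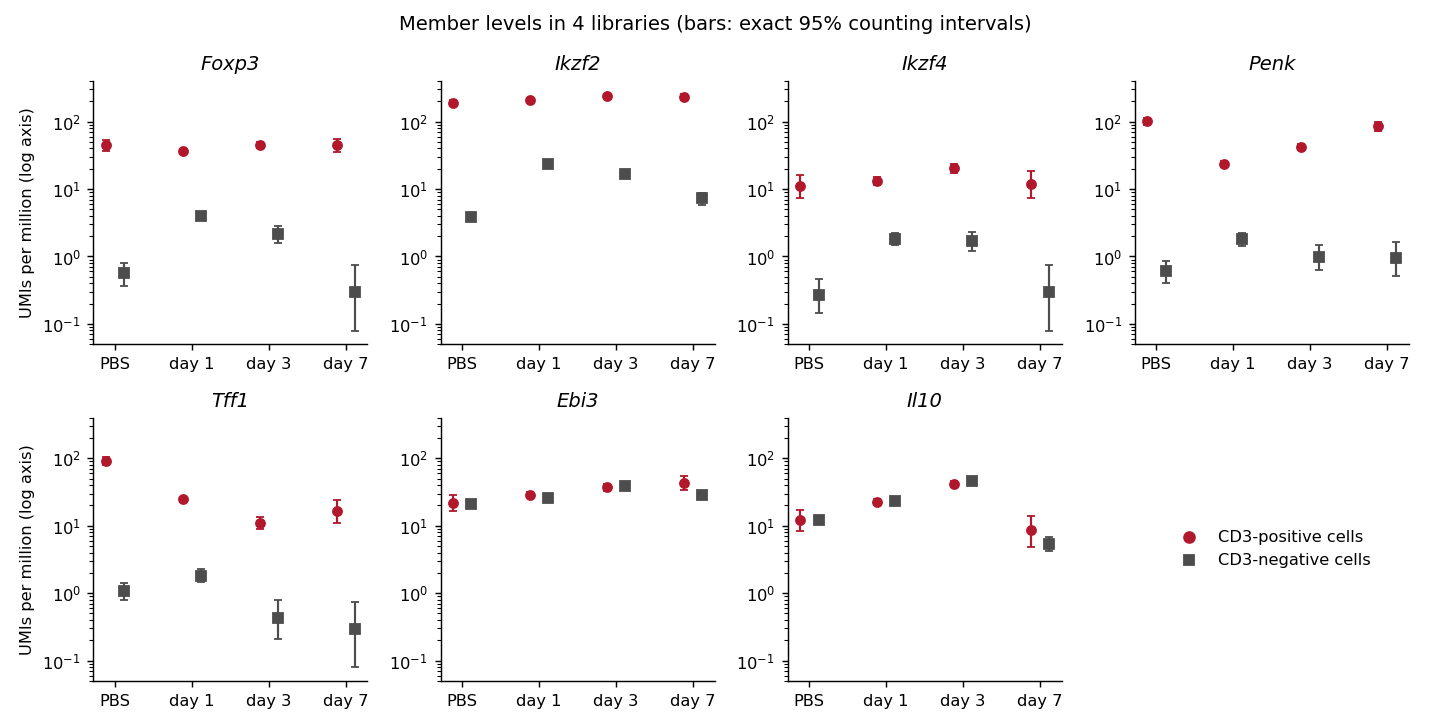
Level of each member in CPM of summed counts (log axis) in CD3-positive (circles) and CD3-negative cells (squares) after PBS and on days 1, 3 and 7, with exact 95% counting intervals and 1 library per group. The circles stand far above the squares for Foxp3, Ikzf2, Ikzf4, Penk and Tff1, whereas for Il10 they lie close together, as for Ebi3 except on day 7, when CD3-positive cells stand at 43.5 and CD3-negative cells at 28.3. Il10 is highest on day 3 in both.

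Each cisplatin day was set against the PBS library in CD3-positive cells, to ask how the members stood after the dose. The same criterion was used. All 7 members had 20 UMIs in each of the 3 comparisons. The 3 days share the PBS library, so their ratios are not independent.

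On day 1, Penk (log2 ratio −2.11, interval −2.34 to −1.88) and Tff1 (−1.89, −2.12 to −1.65) were lower than in the PBS library, and Il10 was higher (0.89, 0.36 to 1.47). Foxp3 (−0.30), Ikzf2 (0.12), Ikzf4 (0.27) and Ebi3 (0.38) were not called. The count of 1 member higher and 2 lower of 7 stands beside 8.39% higher and 3.92% lower among all 11918 genes compared. On day 3, Tff1 (−3.04, −3.39 to −2.69) and Penk (−1.25, −1.49 to −1.02) were lower, while Il10 (1.78, 1.24 to 2.35), Ikzf4 (0.89, 0.31 to 1.52) and Ebi3 (0.75, 0.33 to 1.18) were higher. Those 3 and 2 members stand beside 13.2% higher and 10.9% lower of 10896 genes. On day 7, Tff1 was lower (−2.46, −3.07 to −1.90) and Ebi3 higher (0.98, 0.46 to 1.505), beside 13.6% higher and 10.6% lower of 9418 genes. Penk on day 7 was not called (−0.26, −0.56 to 0.04).

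The lower Tff1 at all 3 days, the lower Penk on days 1 and 3 and the higher Il10 on day 3 were called under all 12 alternatives run for each. The Ikzf4 and Ebi3 calls of day 3 were lost in 4 of 12 alternatives: a stricter CD3 gate of 2 UMIs, a T cell receptor UMI as well, at most 1% macrophage UMIs, and scaling to CD3 UMIs. In the CD3-positive cells with at most 1% macrophage UMIs, Penk was lower at all 3 days, at log2 ratios of −2.53, −1.74 and −2.03, and Tff1 at −1.93, −3.59 and −4.30. There Penk had 61.5, 106 and 86.6 CPM on days 1, 3 and 7, against 355 in the PBS library, and Tff1 84.8, 26.8 and 16.4, against 323. In the same cells Foxp3 on day 1 was called lower (−0.61, −0.94 to −0.26), and Il10 on day 1 was not called (1.12, −0.34 to 3.06), on 4 UMIs in the PBS library. Il10 was higher on day 3 (2.26, 0.86 to 4.17) and Ebi3 on day 7 (1.11, 0.24 to 2.01). These calls stand beside 2.79%, 6.92% and 7.99% of genes lower on days 1, 3 and 7 in these cells, and 9.06%, 10.3% and 16.4% higher.

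**Figure D2:**
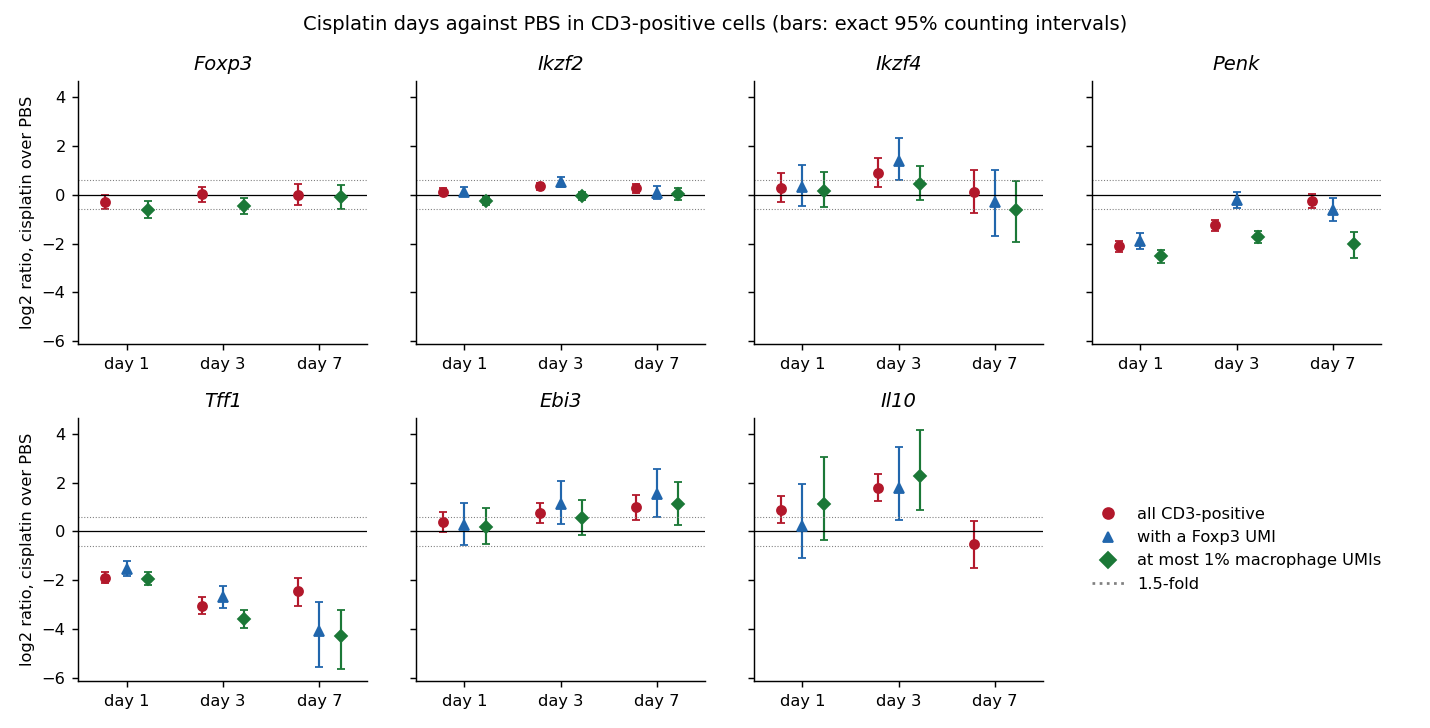
Log2 ratio of each member's level on cisplatin day 1, 3 or 7 over the PBS library in all CD3-positive cells (circles), those with a Foxp3 UMI (triangles) and those with at most 1% macrophage UMIs (diamonds), with exact 95% counting intervals. Dotted lines mark 1.5-fold, points on fewer than 20 UMIs and Foxp3 among cells chosen by it are not drawn. Tff1 lies below 0 at every point, down to −4.30 on day 7.

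Regulatory T cells were then followed as the CD3-positive cells with at least 1 Foxp3 UMI: 75 after PBS, 298 on day 1, 181 on day 3 and 44 on day 7. They were 17.5%, 17.5%, 14.5% and 14.6% of CD3-positive cells. With each cell thinned to 2000 UMIs, the shares were 8.63% (5.86 to 12.2%), 8.86% (7.50 to 10.4%), 9.83% (8.17 to 11.7%) and 9.92% (6.46 to 14.4%), and all 4 intervals overlapped. Thinning left out 93, 148, 107 and 60 shallower cells. Thinned to 1000 UMIs, which left out 9, 34, 21 and 12, the shares were 9.52% (6.89 to 12.7%), 5.51% (4.46 to 6.71%), 6.37% (5.07 to 7.88%) and 6.21% (3.72 to 9.63%), and the PBS interval then lay above that of day 1. The same share in CD3-negative cells with at least 1% macrophage UMIs was 0.1004%, 0.923%, 0.388% and 0.109%. Those cells had a median of 6077, 8869.5, 6336 and 4973.5 UMIs before thinning. That gate does not leave out clusters 7, 10 and 12, which hold T cell markers, so it is not a background free of T cells. As shares of all kept cells, the unthinned Foxp3-positive CD3-positive cells were 1.01%, 4.36%, 3.84% and 1.63%.

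Within these Foxp3-positive cells, Tff1 had 498 CPM after PBS, 172 on day 1, 77.6 on day 3 and 29.6 on day 7, on 129, 363, 64 and 6 UMIs. It was called lower at each day, at log2 ratios of −1.53 (−1.83 to −1.23), −2.68 (−3.14 to −2.24) and −4.07 (−5.54 to −2.91). The share of Foxp3-positive cells with a Tff1 UMI, after thinning, was 43.2% (28.3 to 58.97%) after PBS, 17.4% (12.9 to 22.6%) on day 1, 8.97% (4.99 to 14.6%) on day 3 and 6.25% (0.766 to 20.8%) on day 7. The PBS interval lay above those of all 3 days, but the median depth of these cells after PBS was 2100 UMIs and 31 of the 75 were left out. Thinned to 1000 UMIs, with 3 left out, it was 26.4% (16.7 to 38.1%) after PBS and 13.2% (9.54 to 17.7%) on day 1, and those intervals overlapped. In the CD3-negative cells with at least 1% macrophage UMIs the thinned share with Tff1 was 0.117%, 0.254%, 0.0775% and 0 of 1833 cells, which allows up to 0.164%.

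Penk in the same Foxp3-positive cells had 444 CPM after PBS, 119 on day 1, 379 on day 3 and 291 on day 7. It was lower on day 1 (−1.90, −2.22 to −1.57) and day 7 (−0.61, −1.09 to −0.14), and day 3 was not called (−0.23, −0.54 to 0.09). After thinning, 27.3%, 10.3%, 16.7% and 12.5% of the cells held a Penk UMI, and the PBS interval (14.96 to 42.8%) lay above that of day 1 (6.82 to 14.7%) but overlapped those of days 3 and 7.

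Ikzf4 had 54.0, 67.8, 142 and 44.4 CPM in Foxp3-positive cells after PBS and on days 1, 3 and 7 and was called higher on day 3 (1.39, 0.59 to 2.31). Ebi3 had 54.0, 64.01, 119 and 158 CPM and was higher on day 3 (1.14, 0.32 to 2.06) and day 7 (1.55, 0.60 to 2.57). Il10 rested on 5, 48, 54 and 1 UMIs and was higher on day 3 (1.76, 0.45 to 3.44). Ikzf2 had 942, 1023, 1353 and 997 CPM and was not called at any day. Members called in these cells were 0 higher and 2 lower on day 1, 3 higher and 1 lower on day 3, and 1 higher and 2 lower on day 7. The background over all genes was 4.85% higher and 3.35% lower on day 1, 8.32% and 4.47% on day 3, and 11.5% and 9.2% on day 7. Macrophage markers made up 2.04%, 2.93%, 0.851% and 2.00% of the UMIs of these cells in the same library order, and their part in these ratios was not tested.

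Penk and Tff1 were carried by few cells. Of all CD3-positive cells, 68 held at least 5 Penk UMIs and together 84.1% of the Penk UMIs of that gate, up to 56 in 1 cell. For Tff1, 53 cells held 66.8%, up to 36 in 1 cell. Of the 68 Penk-rich cells 43 had a Foxp3 UMI, and 65 lay in the Treg-like cluster 10; of the 53 Tff1-rich cells these numbers were 42 and 51. By library, the Penk-rich cells numbered 17, 22, 22 and 7 and the Tff1-rich cells 20, 24, 8 and 1 after PBS and on days 1, 3 and 7.
Because of this, each level was also taken without the cell that held most of the member in each library, an alternative added once the values were seen. Tff1 on day 7 then had 5.77 CPM, against 84.7 in the PBS library, a log2 ratio of −3.88 (−4.96 to −2.97) in place of −2.46. Penk had 57.0 CPM on day 7, against 82.8 in the PBS library (−0.54, −0.90 to −0.19), and 20.8 on day 1 (−2.00). Il10 in the PBS library stood at 7.89 CPM without the cell that held 11 of its 31 UMIs, and its ratios became 1.45 on day 1 and 2.34 on day 3.
Penk and Tff1 overlapped in part. Of 186 CD3-positive cells with a Penk UMI over the 4 libraries, 35.5% (28.6 to 42.8%) also held Tff1, against 4.23% of those without Penk. Of 214 cells with a Tff1 UMI, 30.8% also held Penk, against 3.46%. These sums hide differences between libraries. Of Penk-positive cells, 64.9% (47.5 to 79.8%) held Tff1 after PBS and 33.3% (23.6 to 44.3%) on day 1. Of Tff1-positive cells, 46.2% held Penk after PBS and 24.0% on day 1.

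**Figure D3:**
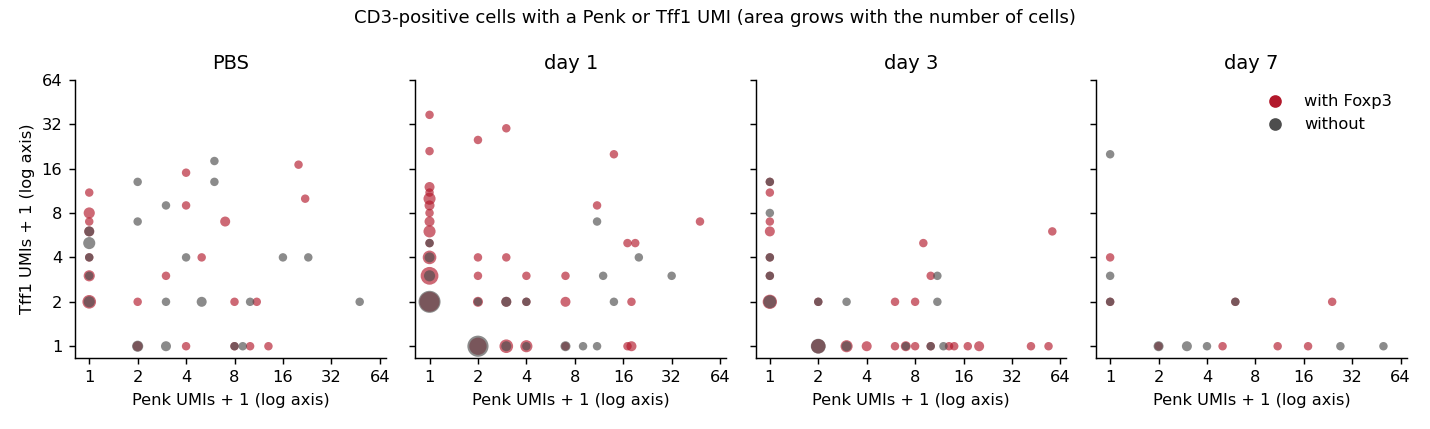
Penk against Tff1 UMIs in each CD3-positive cell with at least 1 UMI of either, by library, on log axes after adding 1, coloured by a Foxp3 UMI; the area of a point grows with the number of cells. Cells with at least 5 Tff1 UMIs number 20, 24, 8 and 1 after PBS and on days 1, 3 and 7, and cells with at least 5 Penk UMIs 17, 22, 22 and 7.

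CD3-positive cells with a Foxp3 UMI were set against those without, within each library, to see which members go with Foxp3. Both sides come from 1 library, so each ratio has 4 values. The members were listed as genes of these cells, so the split is a description. Ikzf2 was higher by 3.22 ± 0.22 on the log2 scale (mean ± SD over 4 libraries), Ikzf4 by 3.35 ± 0.70, Penk by 3.59 ± 1.45, Tff1 by 3.51 ± 1.86 and Ebi3 by 1.88 ± 0.48. Each was called higher in all 4 libraries except Tff1, which was not called on day 7 (0.99, −0.59 to 2.33). On that day 1 cell without a Foxp3 UMI held 19 of the 29 Tff1 UMIs in CD3-positive cells. Il10 had a mean of 0.16 ± 0.77 and was called higher on day 3 (0.74), 1 of the 3 libraries with enough UMIs. That mean includes day 7, at −0.88, which rests on 1 Il10 UMI in Foxp3-positive cells and was not compared. Among all genes with enough UMIs in all 4 libraries, 3.58% were higher in all 4 and 0.49% lower. Per library, 10.7% of genes were higher and 6.56% lower after PBS, 10.8% and 6.9% on day 1, 14.6% and 9.77% on day 3, and 8.28% and 5.75% on day 7.

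The Ikzf2 levels behind this were 942, 1023, 1353 and 997 CPM in Foxp3-positive cells and 107, 95.9, 129 and 129 CPM in Foxp3-negative cells after PBS and on days 1, 3 and 7. For Penk the same levels were 444, 119, 379 and 291, against 62.2, 10.1, 7.64 and 57.6, so the ratio was widest on day 3. For Tff1 they were 498, 172, 77.6 and 29.6, against 45.2, 4.04, 4.26 and 14.9. Foxp3-positive cells were shallower, at a median of 3682 UMIs over the 4 libraries against 7390, and held less macrophage RNA, 2.04%, 2.93%, 0.851% and 2.00% against 3.08%, 3.51%, 2.21% and 3.58%; the part of depth in these ratios was not tested. Among cells with at most 1% macrophage UMIs the mean log2 ratios were 2.64 for Ikzf2, 2.52 for Ikzf4, 3.92 for Penk, 3.14 for Tff1, 2.53 for Ebi3 and 1.47 for Il10.

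Counted by cell, 88.5% of the 598 Foxp3-positive cells held an Ikzf2 UMI, against 27.7% of Foxp3-negative CD3-positive cells. For Ikzf4 the shares were 28.3% and 4.22%, for Penk 16.9% and 2.76%, for Tff1 21.9% and 2.69%, and for Ebi3 29.1% and 17.1%. Il10 was found in 9.87% and 10.3%. The other way round, 38.2% of Ikzf2-positive, 56.5% of Ikzf4-positive, 54.3% of Penk-positive and 61.2% of Tff1-positive CD3-positive cells held a Foxp3 UMI, whereas Ebi3-positive cells did at 24.8% and Il10-positive cells at 15.7%.
Of 33 CD3-positive cells with 5 or more Il10 UMIs, 3 held Foxp3 and 4 lay in cluster 10.

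**Figure D4:**
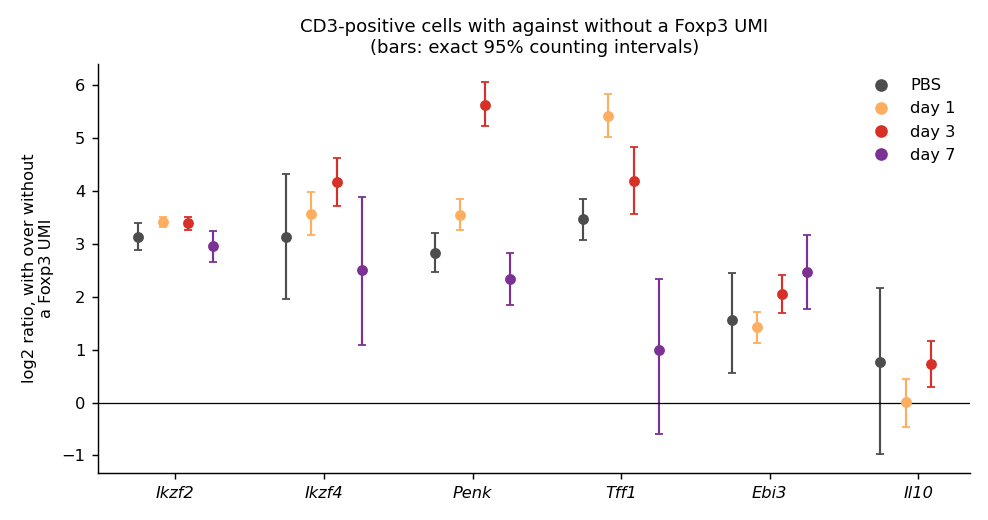
Log2 ratio of each member's level in CD3-positive cells with over those without a Foxp3 UMI, after PBS and on days 1, 3 and 7, with exact 95% counting intervals; Il10 on day 7, on fewer than 20 UMIs, is not drawn. Ikzf2 and Ikzf4 lie between 2.52 and 4.17, Penk and Tff1 spread from 0.99 to 5.63, and Il10 lies from 0.01 to 0.76.

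Of a list of 31 genes of regulatory T cells, 25 had enough UMIs in all 4 libraries, and 16 of the 25 were higher in Foxp3-positive cells in all 4 and 0 lower, beside 3.58% and 0.49% of all genes. The other 9 were not, and among them the co-receptor Nrp1 had a mean log2 ratio of −0.52 ± 0.32, the ectonucleotidases Entpd1 and Nt5e −0.02 ± 0.22 and 0.39 ± 0.20, and the Ikaros gene Ikzf1 0.18 ± 0.22, named here after their values were seen. Among the 16 were Klrg1, a receptor on effector-like regulatory T cells (4.17 ± 0.41), the co-stimulatory receptor Tnfrsf4 (3.81 ± 0.33), the TGF-beta activating integrin chain Itgb8 (3.77 ± 0.49) and the inhibitory receptor Ctla4 (3.66 ± 0.31). Of 25 genes for cofactors and related transcription factors of Foxp3, 22 had enough UMIs, and Stat5a (1.92 ± 0.23), Hif1a (1.45 ± 0.23), Stat5b (1.39 ± 0.41) and Foxo1 (1.25 ± 0.32) were higher in all 4 libraries, beside the same 3.58% of all genes. Tcf7, a factor of naive and memory T cells, was lower in all 4 (−2.56 ± 0.68).
Of 22 genes that process or receive these peptides and cytokines, or are their partners, 8 had enough UMIs in all 4 and 0 were called in all 4. Pcsk1, a convertase that cuts proenkephalin, had enough UMIs in 3 libraries and was higher in each of the 3, with a mean of 3.60 ± 1.27 over 4 libraries.

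Between cisplatin days and the PBS library, in all CD3-positive cells, the list of regulatory T cell genes had 1 higher and 4 lower of 29 on day 1, 3 and 2 of 29 on day 3, and 3 and 4 of 29 on day 7. Its median log2 ratio was −0.10, 0.31 and −0.19, beside medians of 0.10, 0.00 and 0.00 over all genes. On day 1 Klrg1 (−1.05), Tnfrsf4 (−0.69), Gata3, a transcription factor of tissue-type regulatory T cells and ILC2 (−0.68), and Tnfrsf9 (−0.66) were lower, and Il1rl1, the interleukin 33 receptor, was higher (1.00). On day 3 Il2rb (1.59), Il1rl1 (1.00) and Il2ra (0.73) were higher, and Maf (−0.81) and Nrp1 (−0.75) lower. On day 7 Il7r was lower (−1.53), at 89.8 CPM against 259 in the PBS library, and Ccr8, a chemokine receptor of tumour regulatory T cells, was higher (2.22, 0.70 to 4.02) on 16 against 5 UMIs. In cells with at most 1% macrophage UMIs this list had 1 higher and 11 lower of 29 on day 1, with a median of −0.49. As background for that day, the median log2 ratio of all genes compared in those cells was 0.12. Of those genes, 9.06% were called higher and 2.79% called lower.
In Foxp3-positive cells the same list had 2 higher and 6 lower of 29 on day 1, 5 and 1 of 28 on day 3, and 1 and 4 of 24 on day 7. Over all genes in these cells, 4.85% were higher and 3.35% lower on day 1, 8.32% and 4.47% on day 3, and 11.5% and 9.2% on day 7. Klrg1 (−1.12), the growth factor Areg (−0.88) and Gata3 (−0.81) were lower and Prdm1, a factor of effector lymphocytes, higher (1.09) on day 1. On day 3 Nrp1 was lower (−1.45) and Izumo1r, a folate receptor family protein of regulatory T cells (0.99), Il2ra (0.90) and the co-stimulatory receptor Icos (0.77) were higher. On day 7 Areg (−2.06), Il7r (−1.39), Il1rl1 (−1.36) and Rora (−0.97) were lower.

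Among the peptide and cytokine partners, Pcsk1 was lower at each day: 11.7, 9.42 and 3.43 CPM on days 1, 3 and 7, against 20.5 in the PBS library (log2 ratios −0.81, −1.12 and −2.58). In Foxp3-positive cells Pcsk1 had 62.1 CPM on day 1 and 9.87 on day 7, against 120 in the PBS library, and was called lower at both days (−0.95 and −3.60, the day 7 value on 2 UMIs), while day 3, at 77.6 CPM, was not called. Cpe, the carboxypeptidase that trims such peptides, was lower on day 3 (−0.79) and higher on day 7 (0.95). The interleukin 27 subunit Il27, which pairs with Ebi3, was higher on day 3 (1.64, 0.33 to 3.32) on 54 against 5 UMIs, and the receptor chain Il27ra was higher on day 7 (1.32). In all, 1 of 11 partners was higher and 1 lower on day 1, 3 and 2 of 11 on day 3, and 3 and 1 of 9 on day 7. Of the Foxp3 cofactors, 4 were higher and 2 lower of 25 on day 1, 8 and 2 on day 3, and 2 and 3 on day 7, with Satb1 (1.37) and Nr4a3 (1.30) higher on day 3, Foxo3 higher (1.15) and Bach2 lower (−1.98) on day 7, and Ezh2 lower on day 1 (−0.74). The percentages of all genes given above for CD3-positive cells are the background for the counts in CD3-positive cells.

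Over the 18 clusters of all kept cells, the members separated into those held mainly by cluster 10 and those spread over many clusters. Cluster 10 had 1067 cells, of which 81.8% were CD3-positive. It held 6 of 7 regulatory T cell markers and also 4 of 7 markers of group 2 innate lymphoid cells (ILC2). Tnfrsf4, Ikzf2 and Ctla4 led it, so Foxp3, Ikzf2 and Penk helped to define it and their levels there are a description. It held 82.3% of Foxp3, 74.4% of Ikzf2, 68.3% of Ikzf4, 87.2% of Penk and 78.7% of Tff1 UMIs, but 8.64% of Ebi3 and 5.11% of Il10 UMIs. Its levels were 276 CPM for Foxp3, 1424 for Ikzf2, 93.2 for Ikzf4, 263 for Penk, 167 for Tff1, 87.6 for Ebi3 and 42.4 for Il10. Though its share of Ebi3 UMIs was small, its Ebi3 level was the highest of the 18 clusters. Among clusters with at least 20 cells in a library, it was also highest in each, at 54.6, 71.6, 141 and 116 CPM. The CD3-negative cells of cluster 10 had 2078 CPM of Ikzf2, 217 of Foxp3, 91.2 of Ikzf4, 82.5 of Penk and 32.6 of Tff1.
Within libraries, and among clusters with at least 20 cells there, Foxp3 reached 226 to 429 CPM in cluster 10 and at most 11.3 in any other. Cluster 7, with cytotoxic and group 1 innate lymphoid genes, had 93.6 CPM of Ikzf2, and the gamma-delta T-like cluster 12 had 54.0. In CD3-positive cells without Foxp3, those with Cd8a or Cd8b1 had 175, 37.6, 108 and 134 CPM of Ikzf2 after PBS and on days 1, 3 and 7, on 27 to 157 UMIs, and those with Cd4 and neither CD8 gene nor Trdc had 369, 507, 396 and 347, on 31 to 408 UMIs. Penk had 1, 3 and 1 UMIs in those CD8 cells after PBS and on days 1 and 3, and 52 on day 7, of which 49 lay in 1 cell with Cd8a and no Foxp3 UMI, the cell left out above.

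The migratory dendritic-like cluster 15, led by Ccr7 and Fscn1, had 27, 100, 93 and 2 cells after PBS and on days 1, 3 and 7, and its levels differed between libraries. Ikzf4 stood there at 74.0 CPM on day 1 and 34.6 on day 3, second to cluster 10 in both, but had 0 UMIs in the PBS library. Tff1 was second to cluster 10 in all 3, at 267, 27.3 and 6.6 CPM after PBS and on days 1 and 3. Ebi3 was second on days 1 and 3, at 54.7 and 61.02 CPM, but in the PBS library stood at 28.6 on 3 UMIs, below clusters 9 (31.2), 1 (30.6) and 0 (30.3). In its CD3-negative cells Ikzf4 was found in 21 of 88 cells on day 1 and 13 of 84 on day 3, with 34 and 14 UMIs, and had 0 UMIs in the 26 cells of the PBS library, which allows a share of cells with an Ikzf4 UMI of up to 11.5%. The median depths of these cells were 6653, 6363.5 and 3725.5 UMIs in that order. In CD3-negative cells of any cluster with at least 1% macrophage UMIs, 1.07% held an Ikzf4 UMI on day 1 and 0.485% on day 3. These shares are unthinned, at medians of 8869.5 and 6336 UMIs. Cluster 15 held 32.7% of the Ikzf4 UMIs of all CD3-negative cells. Tff1 in the same CD3-negative cells came from few of them: 24 UMIs in 4 of 26 cells of the PBS library, 12 of them in 1 cell, 11 UMIs in 5 of 88 cells on day 1 and 3 UMIs in 3 of 84 on day 3. Foxp3 had 0, 4 and 2 UMIs there and Penk 0, 0 and 1.

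Il10 was highest in cluster 0, led by Cxcl3, Thbs1 and Arg1, in the 3 libraries with enough of its cells, at 65.8 CPM after PBS, 54.4 on day 1 and 98.8 on day 3. The order below it differed between libraries. Cluster 1, led by interferon-induced genes such as Rsad2, stood at 5.92, 42.5 and 50.2 CPM, cluster 9, led by Cxcl9 and MHC class II genes, at 17.5, 37.1 and 48.2, cluster 10 at 11.9, 37.6 and 83.4, and cluster 12 at 29.5, 24.2 and 28.2. Cluster 1 drew 1785 of its 2280 cells from day 3. Summed over the libraries, clusters 0, 1 and 9 held 66.2% of the Il10 UMIs in CD3-negative cells, and the 10 clusters without a name 95.3%. Those 10 held 93.1% of Ebi3 UMIs in CD3-negative cells, at levels from 10.4 to 43.0 CPM in those cells. Most Il10 and Ebi3 UMIs in these libraries thus lay outside CD3-positive cells, as did most kept cells.

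**Figure D5:**
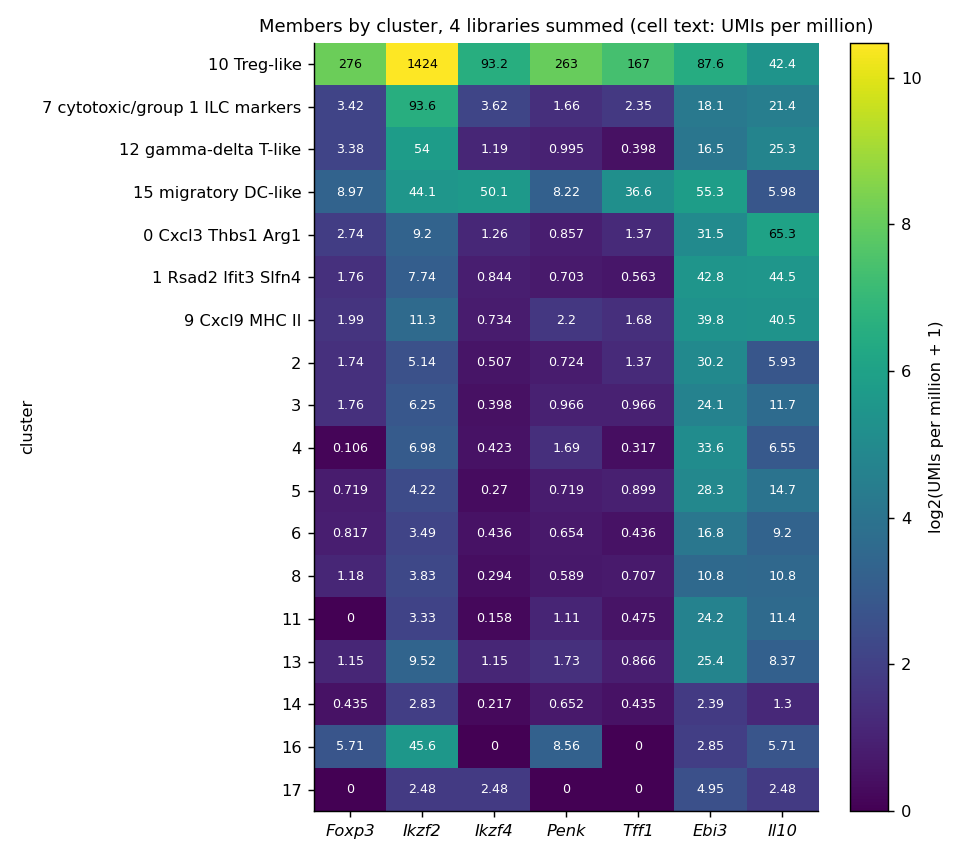
Level of each member in each of 18 clusters with the 4 libraries summed, as CPM in the cell text and log2(CPM + 1) in colour. Cluster 10 stands apart for Foxp3, Ikzf2, Ikzf4, Penk and Tff1. It is also highest for Ebi3, at 87.6, with cluster 15 next at 55.3, and cluster 0 is highest for Il10, at 65.3. Sums over libraries hide differences between them, such as Ikzf4 in cluster 15, which has 0 UMIs in the PBS library.

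The genes whose level over the 18 clusters was most like each member, by Pearson's r of log2(CPM + 10) among 10754 genes, are given as a description, since the clusters share libraries, differ in depth and, for 5 members, 1 of them holds most of the UMIs. Foxp3 was most like Penk (0.992), then Neb, Klrg1, Izumo1r and Ttn (0.981 to 0.990). Penk had the same 4 genes and Foxp3 as its nearest. Ikzf4 and Tff1 were each other's nearest (0.979), each followed by Tnfrsf4. For Ikzf2 the nearest were Sytl2, Fcho1, Cd2, Ctla4 and Cd6 (0.962 to 0.972). Ebi3 was most like Phyh (0.926) and Snx20 (0.917), and Il10 most like Cxcl3 (0.914), then Rybp, Fem1c, Tet2 and Ppp1r15b.

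Outside CD3-positive cells, the members were compared between days and the PBS library in the same way. These cells are not all of other types: over the 4 libraries, clusters 7, 10 and 12, which hold T cell markers, had 64.7% of their Ikzf2 UMIs, 39.4% of Foxp3, 29.3% of Ikzf4, 28.6% of Penk and 10.9% of Tff1, and 2.60% of Ebi3 and 3.55% of Il10. In CD3-negative cells outside those clusters and cluster 15, Foxp3 had 0.315, 2.52, 1.25 and 0.227 CPM and Ikzf2 2.14, 7.98, 5.50 and 3.71 after PBS and on days 1, 3 and 7. In all CD3-negative cells on day 1, 6 of 7 were higher, Foxp3 by 2.83 on the log2 scale (2.25 to 3.47), Ikzf4 by 2.76, Ikzf2 by 2.62, Penk by 1.59 (0.97 to 2.25), Il10 by 0.92 and Tff1 by 0.76 (0.25 to 1.28), beside 15% of all genes higher and 4.14% lower. On day 3, 5 were higher, with Ikzf4 at 2.67 and Il10 at 1.88, and Tff1 was lower (−1.33), beside 16.6% and 16.2% of genes. On day 7 Ikzf2 was higher (0.90) and Tff1 (−1.88) and Il10 (−1.21) lower, of 6 with enough UMIs, beside 19.0% and 12.7%.

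Beside these stand the levels in CD3-negative cells with at least 1% macrophage UMIs, given as a percentage of the CD3-positive level of the same library. That gate does not leave out clusters 7, 10 and 12, so it can hold cells with T cell markers and is not macrophages alone. On day 1 the percentages were 11.3% for Foxp3, 11.7% for Ikzf2, 9.86% for Ikzf4, 8.14% for Penk and 6.35% for Tff1. In the PBS library they were 0.576% (Penk) to 2.64% (Ikzf4). On day 3 the 5 percentages were 2.21% to 4.74%, and on day 7 0.596% to 2.63%. Genes of other T cells were also higher there: Cd8a stood at 5.16% and Trdc at 3.79% on day 1, against 1.70% and 0.638% in the PBS library. CD3-positive cells were 24.9% of kept cells on day 1 and 5.78% in the PBS library, and the part of that share in the CD3-negative levels was not tested. For Ebi3 and Il10 the percentages were 72.3% to 119% in all 4 libraries.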

How the data were processed

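UMI counts per gene and barcode of 4 libraries were used as deposited. Per the file headers they are whole-number counts, and Cell Ranger 3.1.0, Seurat 3.1.2 (with no role given) and the build mm10 are named in the submitters' processing notes. Positions and transcripts came from GENCODE vM21.

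Barcodes were kept where they held 500 genes or more and no more than 10% mitochondrial counts. Scrublet, run through scanpy 1.11.5 with an expected rate of 8%, marked 0 cells at its automatic threshold in each library and so had not worked, and the highest scores were removed instead, at 0.8% per 1000 barcodes. This took out 650, 643, 249 and 66 cells after PBS and on days 1, 3 and 7, whose deposited tables hold 59915831, 82493626, 36587207 and 16153484 UMIs in all. Kept cells were clustered together without batch correction (2000 variable genes, 30 components, 20 neighbours, Leiden in leidenalg 0.10.2 at resolution 1).

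Counts were summed over the cells of a library and scaled to CPM. Ratios carry the exact conditional binomial 95% interval and shares the exact Clopper-Pearson 95% interval (scipy 1.17.1), which hold counting error alone and no spread between mice or sorts. A count of 0 is read as up to 3 counts. No group has a replicate, so no test was made, and day, tumour age, sort and library cannot be told apart from treatment.

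The members and gene lists were chosen with earlier results of these data known. Members were named in every comparison, with the 5 genes most like each over the clusters (genes with at least 200 UMIs) and up to 4 called genes per list with the largest log2 ratios. Tnfrsf9, Il2ra and Foxo1 complete short counts and were named after their values were seen. Comparisons in Foxp3-positive cells, the cells of each T cell subset, the limit of 5 UMIs for rich cells and the grouping of clusters were also chosen after seeing the data. Alternatives were a gate of 2 CD3 UMIs, a T cell receptor UMI, at most 1% macrophage UMIs, doublets kept, at most 20% mitochondrial counts, 200 genes, TMM scaling (edgeR 4.0.16), median of ratios, scaling to CD3 UMIs and no count minimum. Leaving out shared barcodes and the highest cell were added later.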

Additional observations from a re-analysis of the deposited data

Results flagged for a closer look

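Penk and Tff1 moved in opposite directions inside and outside CD3-positive cells on day 1. Relative to the PBS library, Penk was lower in CD3-positive cells on day 1 (log2 ratio −2.11) and higher in CD3-negative cells (1.59, 0.97 to 2.25). Tff1 was lower in CD3-positive cells (−1.89) and higher in CD3-negative cells (0.76, 0.25 to 1.28). The difference between these ratios was not tested, since each group has 1 library. In absolute terms the CD3-negative levels were low: 1.81 CPM on day 1 and 0.601 CPM in the PBS library for Penk, and 1.83 and 1.08 CPM for Tff1. Foxp3 (3.98 against 0.560 CPM), Ikzf2 (23.8 against 3.88) and Trdc (1.10 against 0.352) were also higher there on day 1. Over the 4 libraries, clusters 7, 10 and 12, with T cell markers, had 28.6% of CD3-negative Penk UMIs and 10.9% of Tff1. CD3-positive cells were 24.9% of kept cells on day 1 and 5.78% in the PBS library. The part of that share in these levels was not tested.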

How the results depend on the processing

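No paired analysis was possible because each group holds 1 library, which leaves no pair within or across groups to block on, and for the same reason no replicate could be left out. Of 252 alternative values of a member's log2 ratio, 208 stayed within the counting interval of the reported value, 44 lay outside it and 0 called ratios changed sign. Counts of members called in CD3-positive cells changed as follows. Day 3 had 3 (1 higher, 2 lower) in place of 5 under a gate of 2 CD3 UMIs, a T cell receptor UMI, at most 1% macrophage UMIs and CD3 scaling, so lower calls outnumbered higher ones. Day 7 had 4 (1 higher, 3 lower) in place of 2 with a receptor UMI. It had 3 (1 and 2) with the macrophage limit and 3 (0 and 3) with CD3 scaling. Day 1 had 5 (3 higher, 2 lower) in place of 3 with CD3 scaling. With the macrophage limit day 1 had 0 higher and 3 lower in place of 1 and 2. Its Il10 call, the 1 higher, was also lost with a receptor UMI. CD3 scaling moved all log2 ratios by 0.42, −0.60 and −0.54 on days 1, 3 and 7. Called genes of the regulatory T cell list numbered 5, 5 and 7 on days 1, 3 and 7. Day 1 had 8 with the CD3 gate, 9 with the receptor UMI and 12 with the macrophage limit, with 0, 0 and 1 of them higher, and 10 (9 higher) with CD3 scaling. Day 3 had 6, 6, 3 and 9 under the same alternatives, each with 1 higher. Day 7 had 11 with the receptor UMI and 17 with CD3 scaling. With the macrophage limit, 9.06%, 10.3% and 16.4% of all genes were higher on days 1, 3 and 7, and 2.79%, 6.92% and 7.99% lower. No share over all genes was taken under the CD3 gate, the receptor UMI or CD3 scaling. Counts of members or list genes under those settings thus describe the processing and are not a result about those genes. The cause of these changes was not tested.

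The share of CD3-positive cells with Foxp3 was 17.5%, 17.5%, 14.5% and 14.6% unthinned after PBS and on days 1, 3 and 7. Thinned to 1000 UMIs it was 9.52% after PBS and 5.51%, 6.37% and 6.21% on days 1, 3 and 7. With the CD3 gate it was 15.3%, 15.8%, 14.5% and 16.8%, and with the macrophage limit 23.4%, 22.9%, 17.9% and 26.9%. The share of UMIs in CD3-positive cells under the CD3 gate was 75.1% for Foxp3, 68.7% for Ikzf2, 64.5% for Ikzf4, 84.6% for Penk, 80.1% for Tff1, 13.3% for Ebi3 and 12.3% for Il10. It was 23.3% for Ebi3 and 23.8% for Il10 with doublets kept, and 74.9% for Ikzf2 with up to 20% mitochondrial counts. The mean log2 ratio of Foxp3-positive over Foxp3-negative cells for Ikzf2 was 2.98 with doublets kept. With the macrophage limit the means were 2.64 for Ikzf2, 2.52 for Ikzf4, 2.53 for Ebi3 and 1.47 for Il10.

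Among the settings run, the calls that held in all 12 were Tff1 lower on each day, Penk lower on days 1 and 3 and Il10 higher on day 3. Penk on day 7 was called lower in 3 of 12: at −0.65 with a receptor UMI, −2.03 with the macrophage limit and −0.80 with CD3 scaling. Il10 on day 7 was called lower in 2 of 12, at −1.19 with a receptor UMI and −1.05 with CD3 scaling. The Ebi3 call of day 7 was lost with CD3 scaling (0.44), and the Il10 call of day 1 with the receptor UMI and the macrophage limit. Few cells limit day 7, where Tff1 in Foxp3-positive cells rests on 6 UMIs in 44 cells.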
